A study of Sus scrofa with 4 samples.

Results

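The genes described here are those of cytokine, interferon and chemokine signalling on a porcine oligonucleotide array. They were chosen by a rule on gene symbols that uses no measured value but was set with earlier results of these data known. The rule takes in interleukins and their receptors, CXC and CC chemokines and receptors, interferons and interferon-induced genes. It also takes in IRF, JAK, STAT and SOCS families, Toll-like receptors, NF-kappaB genes, LIF and CSF genes. Tumour necrosis factor (TNF) ligands, receptors and genes named as TNF-induced complete it. This gave 165 of the 10024 genes named on the array, read by 181 of its 43794 probes, of which 13146 carry a gene symbol. Of the 165 symbols, 163 are current pig symbols, IL8 is now CXCL8 and IFIT5 is now LOC100151816. RNA came from Sus scrofa blastocysts, the embryo stage with an outer trophectoderm and an inner cell mass. The embryos came from oocytes exposed to high NEFAs (non-esterified fatty acids, which body fat releases into the blood) or from control oocytes. Each of 4 two-colour arrays compared 1 NEFA pool with 1 control pool, with the NEFA pool in Cy3 on arrays 1 and 2 and in Cy5 on arrays 3 and 4. Collection was on Day 7 and Day 8, and the design gives 10 blastocysts to a pool and 4 pools, without saying whether that is 4 per condition or whether a pool mixed both days. The labels used here name no fatty acid, dose, exposure time, breed or culture medium, and call the arrays biological replicates without saying which cultures the pools came from, so p-values measure the spread between these arrays. In pooled embryos, fewer cells of a type and less RNA per cell cannot be told apart.

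Cytokines are secreted proteins that act through membrane receptors on the same or nearby cells. Interleukins of the IL6 family and LIF signal through IL6ST (gp130) to Janus kinases and STAT transcription factors, with SOCS proteins as feedback inhibitors, while TNF, IL1 and Toll-like receptors act through NF-kappaB. Chemokines act through G protein-coupled receptors and guide cell movement. Interferons induce antiviral genes through STAT2 and IRF9, and in pigs the trophectoderm of the elongating conceptus is itself a source of interferon gamma and of interleukin 1 beta. Many of these genes are best known from leukocytes.

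Median raw intensities were 289 to 436 (Cy3) and 220 to 289 (Cy5) per array, and 35 to 75 probes per array carried a scanner flag. Of 13 probes for trophectoderm markers 8 were measured, with TEAD4, TFAP2C, DAB2 and PTGS2 each above background in all 8 pools by at least 1 probe. KRT19, above background in 1 NEFA and 2 control pools, and ATP1B1, in 1 and 1, were not measured. A further probe of TEAD4 was not measured either, and further probes of DAB2 and ELF5 were above background in 0 pools. No named probe used here carries the symbol POU5F1, NANOG, CDX2 or KRT8. Of the 8 measured trophectoderm probes, 4 had values above 0 and 4 below, and 0 passed the adjusted threshold in limma. At an unadjusted p under 0.05 there were 2 (1.54% of all tested probes), a DAB2 probe at -0.45, whose other measured probe was at -0.14, and an ELF5 probe kept through the control pools alone. DAB2, listed here for trophectoderm, is also a primitive endoderm gene. Of 4 probes for inner cell mass and epiblast markers only UTF1 was measured. Of 14 probes for leukocyte markers 4 were measured (PTPRC, CD3D, LCP1 and FCER1G), while CD3E, CD8A and NCF1 were above background in 0 pools. The summed signal of all 14 leukocyte probes, measured or not, was 3964 to 4333 in the NEFA pools and 3787 to 4363 in the control pools. The conditions overlapped, but most of these probes were not measured, so the sum cannot compare leukocyte content. Of 7 probes for cumulus and granulosa markers, FST and VCAN were measured. The summed signal of all 7, with the same limit, was 2609 to 3571 in NEFA and 2956 to 4183 in control pools. The part of other cell types in the signals below was not tested.

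A probe counts as above background in a pool when its corrected intensity lies more than 2 SD over the mean of that array and dye's 153 negative control spots. It counts as measured when at least 3 of 4 pools from either condition met this. Most cytokine and chemokine probes were dim in these embryos. Of the 181 probes, 60 (33.1%) were measured, for 59 genes, 63 were above background in some pools without reaching that count, and 58 (32.0%) were above it in 0 pools. Of all 43794 probes, 39.1% were measured and 29.5% were above background in 0 pools. In all 8 pools 30 members (16.6%) were above background, against 25.0% of all probes, and 19 members (10.5%) had at least 2 times the limit in all 8 pools, against 14.9% of all probes. Those 19 probes were for IL6, IL12A, IL12B, IL1RL1, IL27RA, IL31RA, CXCL14 (2 probes), CXCL16, CCR1, CXCR4, IRF3, IFI30, JAK2, STAT2, SOCS7, NFKBIA, TLR7 and TNFRSF9. In single pools, 58 to 76 of the members were above background in NEFA and 52 to 72 in control RNA. Which condition held more differed between arrays: NEFA on arrays 1, 2 and 3, control on array 4. The same held over all probes. Of these, 45.7%, 46.1%, 41.8% and 39.9% were above background in the NEFA pools of arrays 1 to 4. In the control pools 41.1%, 38.3%, 40.5% and 49.0% were. On arrays 1, 2 and 4 the fuller channel was Cy3, so the pattern is not particular to the members.

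**Figure D1:**
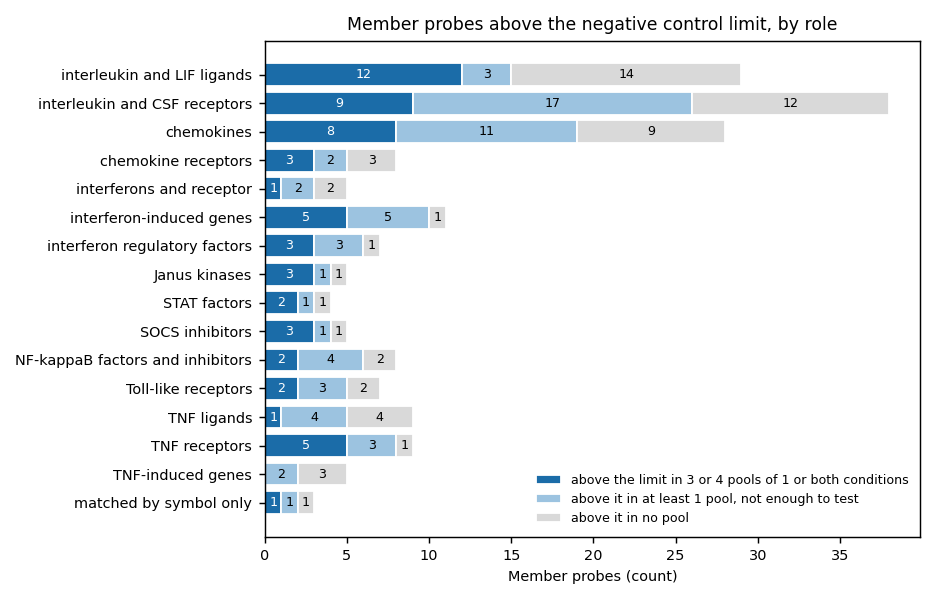
Number of member probes in each role that were above the negative control limit in 3 or 4 pools of 1 or both conditions (dark blue), in fewer pools (light blue) or in none (grey). Ligands of the interleukin group had 12 measured probes and 14 above the limit in no pool. Of the TNF receptor probes 5 of 9 were measured, and of those grouped by symbol as TNF-induced 0 of 5.

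Among the secreted interleukins, 12 of 29 probes were measured and 14 were above background in 0 pools. IL6, the ligand that gives its name to the gp130 family, had a log2 signal over the limit of 6.16, 6.09, 5.30 and 6.74 in the NEFA pools of arrays 1 to 4 and of 6.81, 6.25, 6.34 and 6.07 in the control pools. IL12A, a subunit shared by IL12 and IL35, stood at 5.61, 3.96, 4.57 and 6.20 in NEFA and at 5.30, 5.78, 5.11 and 5.07 in control pools. For both genes the pools of the 2 conditions overlapped, and every pool was far above the limit. IL12B, the other IL12 subunit, was also above it in 8 of 8 pools. By contrast LIF, which maintains pluripotency in mouse stem cells and acts on the uterus at implantation, lay below the limit in 8 of 8 pools, at -0.94 to -0.29 in NEFA and -0.51 to -0.39 in control pools. IL15, IL7, IL34, IL16, IL24 and the IL17 ligands IL17A, IL17D and IL17F were likewise above background in 0 pools. IL10, IL11, IL18, IL1A, IL26, IL5, IL19, IL2 and IL23A made up the rest of the measured interleukins, each within 1.25 log2 units of the limit or below it in every pool. No named probe used here carries the symbol IL1B, CSF2 or LIFR.

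Receptors of interleukins and colony-stimulating factors were measured for 9 of 38 probes, and 17 more were above background in some pools. IL27RA, IL31RA and IL1RL1, the receptor of IL33, were above the limit in all 8 pools, as were IL11RA, which binds IL11, and IL18RAP. IL6ST, the shared signal-transducing receptor of IL6, IL11 and LIF, was close to the limit, with a log2 signal over it of -0.02, 0.07, 0.04 and 0.20 in NEFA and of -0.13, -0.26, -0.20 and 0.16 in control pools. It was thus above the limit in 3 NEFA pools and 1 control pool. The decoy receptor IL1R2 and the IL17 receptor family members IL17RE and IL17REL were also measured, while IL1R1, IL2RG, IL5RA, IL9R, IL23R, CSF2RB and the 3 probes of IL13RA2 were above background in 0 pools. CSF1R, the macrophage growth factor receptor, was above it in 1 NEFA pool.

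Of 28 chemokine probes 8 were measured, for CXCL14, CXCL16, CCL5, CCL16, CCL24, CCL25 and IL8. CXCL16, a transmembrane chemokine, had a log2 signal of 2.62 to 4.03 over the limit, and its receptor CXCR6 one of 0.00 to 0.63, both in 8 of 8 pools. CXCR4, the receptor of CXCL12, was bright, at 4.80, 4.10, 3.69 and 5.27 in NEFA and at 4.35, 4.76, 4.25 and 4.38 in control pools, and the NEFA values lay on both sides of the control values. Its ligand CXCL12 was not measured: of its 2 probes, 1 was above background in 0 pools and the other in 1 NEFA pool. CCR1, a receptor of CCL5, was above the limit in 8 of 8 pools, and CCR7, CCR9 and CXCR5, known from lymphocytes, in 0. The interferon-inducible chemokines CXCL9, CXCL10 and CXCL11 were above background in 0, 1 and 1 pools.

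No interferon was measured. IFNG was below the limit in all 8 pools, at -0.36, -0.25, -0.13 and -0.34 in NEFA and at -0.33, -0.12, -0.31 and -0.45 in control pools. IFNE was above background in 0 pools, IFNB1 in 1 and IFNK in 2, and the receptor subunit IFNGR1 was measured. Of 11 interferon-induced probes 5 were measured: IFI30, a lysosomal thiol reductase, OAS1 and OASL of the oligoadenylate synthetase family, the RNA sensor IFIH1 and IFIT3. IFI30 and OAS1 were above the limit in 8 of 8 pools, while IFIT1 was above it in 0 pools and MX2, an antiviral GTPase, in 1. The sensors' downstream factors IRF3 and IRF7 were above the limit in 8 of 8 pools and IRF9, a DNA-binding partner of STAT2, in 7 by 1 of its 3 probes. IRF1 and IRF2 were not measured.

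Inside the cell, 3 of 5 Janus kinase probes were measured, for JAK1, JAK2 and TYK2, and JAK3, the kinase paired with IL2RG in lymphocytes, was above background in 0 pools. TYK2 had a log2 signal over the limit of 0.71, 0.94, 0.91 and 1.07 in NEFA and of 1.22, 0.95, 1.12 and 1.44 in control pools. STAT2 was bright at 2.40 to 3.38, STAT5B was measured by 1 of 2 probes and STAT4 was above background in 0 pools. No named probe used here carries the symbol STAT3 or SOCS3. SOCS7, SOCS4 and SOCS2 were measured and SOCS5 and SOCS6 were not. The SOCS2 spot of array 2 carried a scanner flag, so its ratio there was left out and 3 arrays remained. That spot, at 3.61 in NEFA and 2.66 in control, still counted as above background. Without it only the control pools of SOCS2 would reach 3 above background. Of the NF-kappaB genes, NFKB1, the p50 precursor, and NFKBIA, the inhibitor that holds NF-kappaB in the cytoplasm, were measured. NFKBIA stood at 4.01, 3.66, 3.32 and 5.06 in NEFA and at 3.89, 4.56, 3.55 and 3.45 in control pools by its brighter probe. TLR7 and TLR3, which sense RNA in endosomes, were measured, and TLR2, TLR4 and TLR8 were not.

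TNF was just above the limit in 8 of 8 pools, with a log2 signal of 0.57, 0.03, 0.40 and 0.32 in NEFA and of 0.30, 0.33, 0.14 and 0.28 in control pools. None of the 8 other TNF family ligands was measured. Of the receptors, TNFRSF9 and TNFRSF18, costimulatory receptors of T cells, were above the limit in 8 of 8 pools, TNFRSF21 (death receptor 6) was measured, and the main TNF receptor TNFRSF1A was not, by either of its 2 probes. TNFRSF11A, the receptor of RANKL, and TNFRSF17, a plasma cell receptor, were each above it in 3 NEFA and 0 control pools. Of the genes grouped by symbol as TNF-induced, TNFAIP2, TNFAIP3 and TNFAIP8L3 were above background in 0 pools. TNFAIP8L2 and TNFAIP8L3 are in that group only by name, as relatives of TNFAIP8. Of 3 genes that match by symbol alone, ISG20L2, a nucleolar exonuclease, was measured, and IL4I1 and IFITM5 were not.

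**Figure D2:**
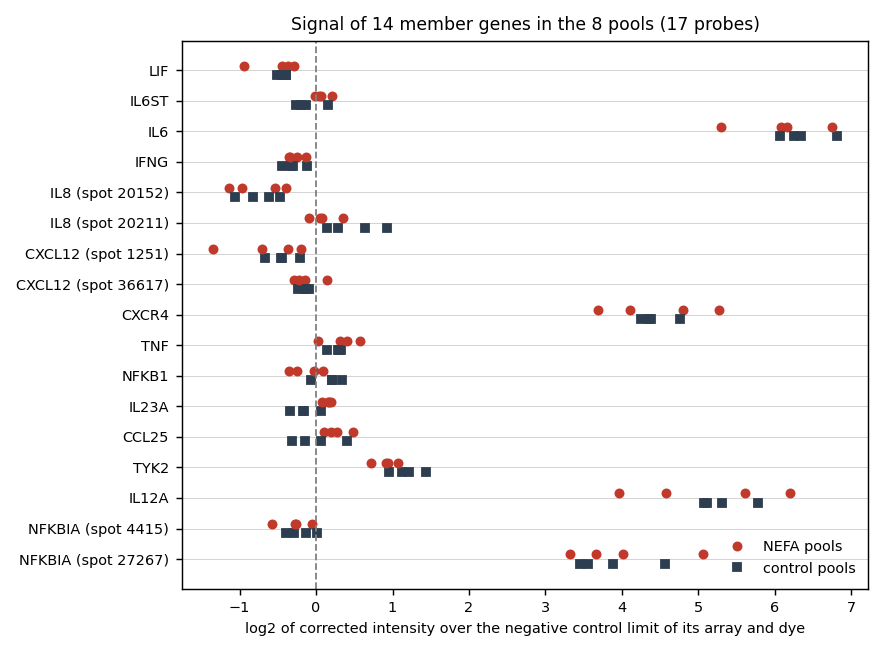
Log2 of the corrected intensity over the negative control limit of its array and dye (horizontal axis) for 14 member genes, 1 row per probe, in 4 NEFA pools (circles) and 4 control pools (squares), with the limit at the dashed line. IL6, IL12A, CXCR4 and 1 probe of NFKBIA lie at 3.32 or more in every pool, LIF and IFNG lie below 0 in every pool, and levels of different probes are not comparable with each other.

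Different probes of a gene often disagreed on whether the gene was above background. Of 13 member genes with several probes, 8 had at least 1 measured probe and 0 had all of them measured. Over the whole array, 1655 of 2162 genes with several probes had at least 1 measured and 524 had all. The 2 probes of NFKBIA were above background in 8 pools and in 1, those of JAK2 in 8 and 1, those of CCL5 in 8 and 2, and those of IL8 in 7 and 0. IRF9 had 7, 2 and 1 pools over its 3 probes, and CXCL14 had 8, 8 and 4. A count of genes above or below the limit is thus a count for these probes. IL6, IL12A and CXCR4 were each read by 1 probe, so no other probe could check their bright signal.

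To compare the conditions, the dye effect and the log2 NEFA over control ratio were estimated together in limma, and each value below is that ratio ± SE (n = 4 arrays). No member passed the test for a difference between blastocysts of NEFA-exposed and control oocytes. In limma 0 of 60 member probes passed an adjusted p of 0.05, and 0% of the 17145 probes tested did so. At an unadjusted p under 0.05 there were 0 members, where 1.54% of all tested probes reached it. The median of the 60 values was 0.05 against -0.01 for all tested probes, with 35 members above 0 and 25 below (48.4% of all tested probes were above 0). The median of the members was 0.03 on array 1, -0.16 on array 2, 0.01 on array 3 and 0.27 on array 4, and its mean of 0.04 was smaller than its SD of 0.18 over the 4 arrays. Values ran from -0.39 to 0.31, and 0 members reached 1.5-fold, which 0.507% of all tested probes did. The 95% interval of the median member was ± 0.41 on the log2 scale, a factor of 1.33. It lay within 2-fold of no difference for 56 members and within 1.5-fold for 29. When only probes above the limit in all 8 pools were fitted, the median interval of their 30 members was wider, at ± 0.60. These intervals are of probe ratios, and near the limit much of the signal is background. They therefore do not exclude larger differences in RNA.

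**Figure D3:**
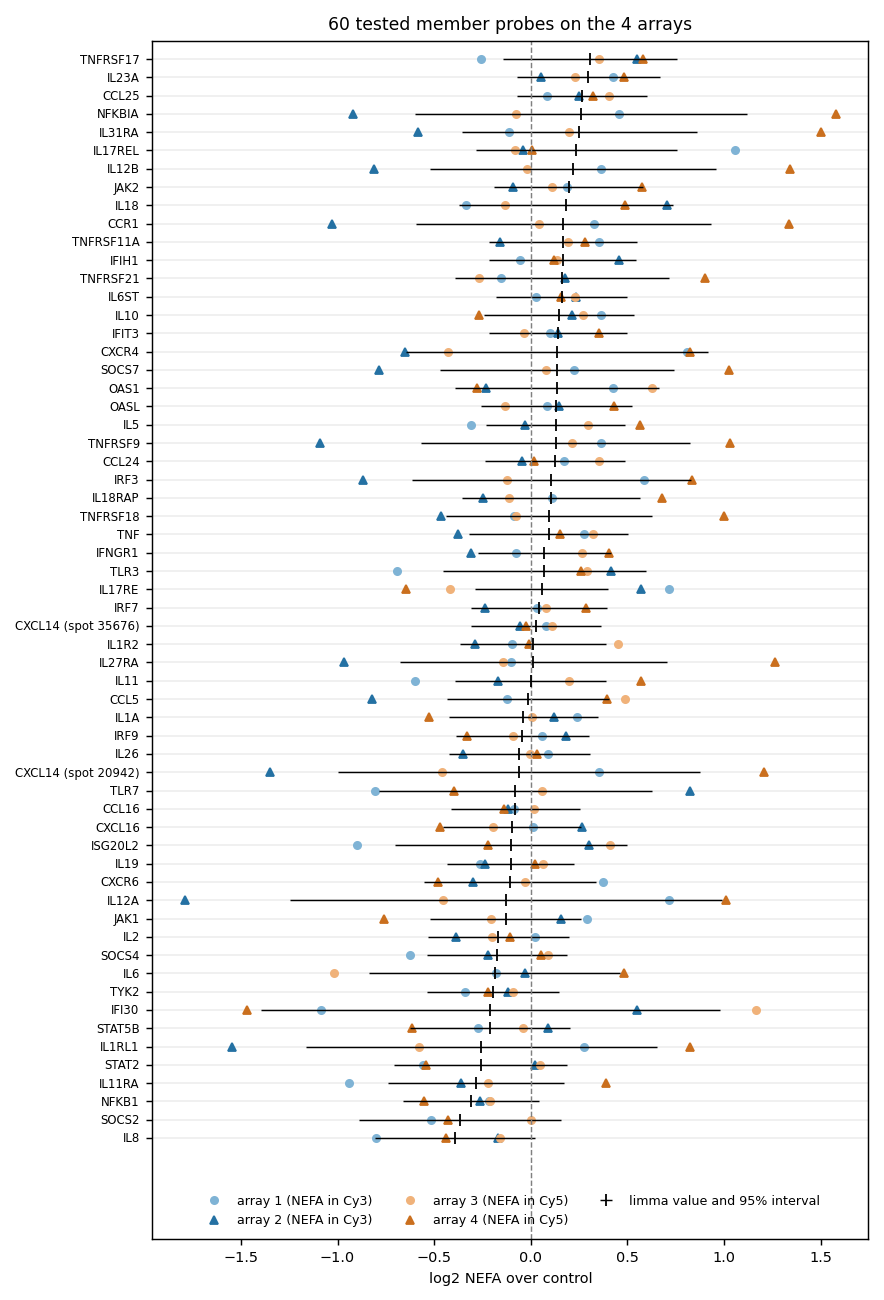
Log2 ratio of NEFA over control for the 60 tested member probes on each of the 4 arrays (points) with the limma value and its 95% interval (bars), ordered by value. Every interval includes 0, the values run from -0.39 for IL8 to 0.31 for TNFRSF17, and the point farthest from 0 is IL12A on array 2, at -1.79.

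The direction was the same on 4 of 4 arrays for 6 members (10.0%), against 7.82% of all tested probes. Of these, 3 were lower in NEFA (4.28% of all tested probes were) and 3 higher (3.54%). IL8, the neutrophil chemokine now named CXCL8, had ratios of -0.80, -0.17, -0.16 and -0.44 on arrays 1 to 4. Its value of -0.39 ± 0.17 had an interval from -0.81 to 0.02 and an unadjusted p of 0.060, the smallest of the group. The signal over the limit of this probe was -0.10, 0.06, 0.08 and 0.35 in NEFA and 0.64, 0.14, 0.29 and 0.93 in control pools, so the groups overlapped and array 1 and array 4 carried most of the gap. The other IL8 probe was above background in 0 pools and adds no ratio. NFKB1 had ratios of -0.21, -0.26, -0.21 and -0.55, a value of -0.31 ± 0.14 and an unadjusted p of 0.074. Its probe was above background in 1 NEFA and 3 control pools, and so was kept through the control pools alone. TYK2 had ratios of -0.34, -0.12, -0.09 and -0.22, with a value of -0.19 ± 0.14.

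Toward NEFA on 4 of 4 arrays were IL23A, CCL25 and IL6ST. IL23A, the subunit that makes IL23 with IL12B, had ratios of 0.43, 0.05, 0.23 and 0.48 and a value of 0.30 ± 0.15. CCL25, a chemokine of thymus and gut, had ratios of 0.08, 0.25, 0.41 and 0.32 and a value of 0.26 ± 0.14 (interval -0.07 to 0.60). IL6ST had ratios of 0.03, 0.23, 0.23 and 0.15 and a value of 0.16 ± 0.14. All 3 probes were kept through the NEFA pools alone, with IL23A above background in 4 NEFA and 1 control pool and CCL25 in 4 and 2. In the group as a whole 14 members were kept through the NEFA pools alone and 5 through the control pools alone, 23.3% and 8.33%, against 10.6% and 9.71% of all tested probes. The filter favours probes that are brighter in the condition they were kept through, so the signs of their ratios are no independent observation. Of the 14, 12 had values above 0, and of the 5, 3 had values below 0. The limma adjusted p was 1.00 after rounding for all 60 members.

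IL6 had ratios of -0.18, -0.03, -1.02 and 0.49 and a value of -0.19 ± 0.26. IL12A ranged from -1.79 on array 2 to 1.01 on array 4, with 0.72 on array 1 and -0.45 on array 3, and its value was -0.13 ± 0.45. CXCR4 had ratios of 0.81, -0.65, -0.43 and 0.82 and a value of 0.14 ± 0.32. In each of these 3 genes the arrays fell on both sides of 0. IL12B was at 0.22 ± 0.30, IL31RA at 0.25 ± 0.25, IL27RA at 0.01 ± 0.28 and IL1RL1 at -0.26 ± 0.37. The interval of TNF, with ratios of 0.28, -0.37, 0.32 and 0.15, ran from -0.32 to 0.51. IL11RA had a value of -0.28 ± 0.18, with -0.94 on array 1 and 0.39 on array 4.

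Among the remaining interleukins, IL10 was at 0.15 ± 0.16, IL18 at 0.18 ± 0.22, IL5 at 0.13 ± 0.14, IL19 at -0.10 ± 0.13 and IL26 at -0.06 ± 0.15. IL11 was at 0.00 ± 0.16 with -0.60 on array 1 and 0.57 on array 4, and IL1A was at -0.04 ± 0.16. The other receptors were IL17REL at 0.24 ± 0.21, IL18RAP at 0.11 ± 0.18, IL17RE at 0.06 ± 0.14 and IL1R2 at 0.01 ± 0.15. Among chemokines and their receptors, CCL24 was at 0.13 ± 0.15, CCL5 at -0.02 ± 0.17, CCL16 at -0.08 ± 0.13, CXCL16 at -0.10 ± 0.14, CCR1 at 0.17 ± 0.31 and CXCR6 at -0.11 ± 0.18. The 2 measured probes of CXCL14 were at -0.06 ± 0.38 and 0.03 ± 0.14. None of these intervals excluded 0.

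Of the interferon-induced genes, 4 of 5 had values above 0 (48.4% of all tested probes did), with IFIH1 at 0.16 ± 0.15, IFIT3 at 0.14 ± 0.14, OAS1 at 0.14 ± 0.21 and OASL at 0.13 ± 0.16. IFIT3 was kept through the NEFA pools alone, and leaving out 1 array took OAS1 to -0.09 and OASL to -0.01 at the lowest. IFI30 was at -0.21 ± 0.48, with ratios of -1.08, 0.55, 1.16 and -1.47 and the widest interval of the group, from -1.40 to 0.98. IFNGR1 was at 0.07 ± 0.14, and the factors IRF3, IRF7 and IRF9 at 0.11 ± 0.29, 0.04 ± 0.14 and -0.04 ± 0.14. Of the kinases and STAT factors, JAK2 was at 0.20 ± 0.16, JAK1 at -0.13 ± 0.16, STAT2 at -0.26 ± 0.18 and STAT5B at -0.21 ± 0.17. STAT2 had ratios of -0.56, 0.02, 0.05 and -0.54, so only arrays 1 and 4 were low. The inhibitors SOCS2, SOCS4 and SOCS7 were at -0.36 ± 0.20 (3 arrays), -0.18 ± 0.15 and 0.14 ± 0.24, and NFKBIA was at 0.26 ± 0.35. Fitted from the authors' deposited table, SOCS2 changed sign, to 0.04. TLR3 and TLR7 were at 0.07 ± 0.21 and -0.08 ± 0.28, and ISG20L2 at -0.10 ± 0.24.

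All 5 measured TNF receptors had values above 0, between 0.09 and 0.31 (48.4% of all tested probes were above 0), and 0 of them passed. TNFRSF11A, TNFRSF17 and TNFRSF21 were kept through the NEFA pools alone, which favours that sign. TNFRSF18 was at 0.09 ± 0.22, TNFRSF21 at 0.16 ± 0.22 and TNFRSF9 at 0.13 ± 0.28. Leaving out 1 array took TNFRSF18 to -0.17, TNFRSF21 to -0.13 and TNFRSF9 to -0.23 at the lowest, while TNFRSF11A and TNFRSF17 stayed above 0. TNFRSF11A and TNFRSF17, with the interleukin IL2, were above background in 0 pools of 1 condition, so that their ratio is a bound. By the mean over pools, TNFRSF17 (limma value 0.31 ± 0.18) was at least 1.08-fold and TNFRSF11A (0.17 ± 0.15) at least 1.11-fold higher in NEFA, although array 1 read -0.26 for TNFRSF17 and array 2 read -0.16 for TNFRSF11A. IL2 (-0.17 ± 0.15), above background in 3 control pools, was at least 1.04-fold higher in control pools by the same measure, with array 1 at 0.02. With the dye orientations of arrays 2 and 3 exchanged, TNFRSF17 was at -0.14 and IL2 at 0.12, so both changed sign. These bounds compare the mean of the brighter condition with that of the dim one, where each dim array takes the probe's signal or the lowest signal found above background, whichever is higher. They carry no interval, and the filter favours the direction through which each of the 3 probes was kept. The limma intervals include 0: -0.15 to 0.76 for TNFRSF17, -0.21 to 0.55 for TNFRSF11A and -0.53 to 0.20 for IL2. The bounds therefore describe these pools and do not show a difference between the conditions.

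Ratios of the bright members ran opposite ways on arrays 2 and 4, which carry NEFA in different dyes. On the scale of Cy5 over Cy3, 11 of the 60 members (18.3%) were at least 1.5-fold higher in Cy5 on both arrays, against 8.08% of all tested probes, and 0 were that much higher in Cy3 on both. These were IL12A, IL12B, IL27RA, IL1RL1, CCR1, CXCR4, CXCL14, IRF3, NFKBIA, SOCS7 and TNFRSF9. As NEFA over control they read from -1.79 to -0.65 on array 2 and from 0.82 to 1.58 on array 4. The limma value, fitted over all 4 arrays, thus includes 2 opposed readings. All 11 were among the 19 members at 2 times the limit or more in 8 pools (57.9%), and of all probes that bright 18.0% had the same pattern. Over all tested probes, the NEFA over control ratios of arrays 2 and 4 correlated at r = -0.54 across 17102 probes, and those of the other 5 pairs of arrays at -0.29 to 0.16. Across 59 members r was -0.63 for arrays 2 and 4. Arrays of the same orientation had r = -0.24 (1 and 2) and 0.16 (3 and 4) over all tested probes. Probes of an array share its hybridisation and are not independent replicates. Ratios beyond 2-fold were found for 11 members (18.3%) on array 4, against 8.50% of all tested probes. On arrays 1, 2 and 3 they were found for 2, 5 and 2 members (3.33%, 8.47% and 3.33%). The shares of all tested probes there were 2.90%, 4.25% and 0.589%.

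**Figure D4:**
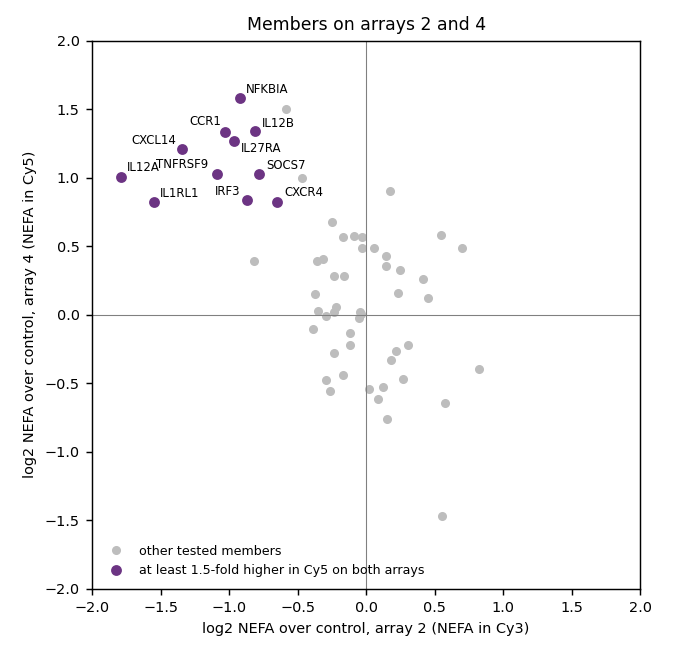
Log2 NEFA over control on array 2 (horizontal axis, NEFA in Cy3) and array 4 (vertical axis, NEFA in Cy5) for the members with a ratio on both. The 11 named probes are at least 1.5-fold higher in Cy5 on both arrays, which places them at -1.79 to -0.65 on array 2 and at 0.82 to 1.58 on array 4.

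A different 11 members had the same dye higher on all 4 arrays (18.3%, against 19.3% of all tested probes), 7 in Cy5 and 4 in Cy3. IL17RE, for instance, was at 0.72 and 0.57 with NEFA in Cy3 and at -0.42 and -0.64 with NEFA in Cy5. CCL5, IFNGR1, IL5, IL11, IL19, IL31RA and SOCS4 were higher in Cy5, and JAK1, IRF9, CXCL16 and IL17RE in Cy3. The dye term of the fit takes up such a preference.

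The count of 0 rests on the dye orientations in the labels. With those of arrays 2 and 3 exchanged, a reading known from earlier results of these data, 11 of 60 members (18.3%) passed an adjusted p of 0.05 in limma, against 6.96% of all tested probes. Of these, 10 were toward NEFA and 1, IFI30, toward control, and 10 of the 11 were members with high Cy5 on arrays 2 and 4. IL12A was then at 0.99 and CXCL14 at 0.84 (adjusted p = 0.0146 each), IL1RL1 at 0.81, NFKBIA at 0.76, CXCR4 at 0.68 and CCR1 at 0.66. IFI30 was at -1.07. The first 3 of these had negative values with the labelled orientations, at -0.13, -0.06 and -0.26. Exchanging arrays 1 and 4 instead is the mirror image with every sign turned, so neither direction is fixed by the data and these p-values are no test of NEFA. Of the 6 members with 1 direction on 4 arrays, CCL25 and IL6ST then changed sign (-0.06 and -0.07), while IL8 was at -0.23, IL23A at 0.16, TYK2 at -0.09 and NFKB1 at -0.07.

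**Figure D5:**
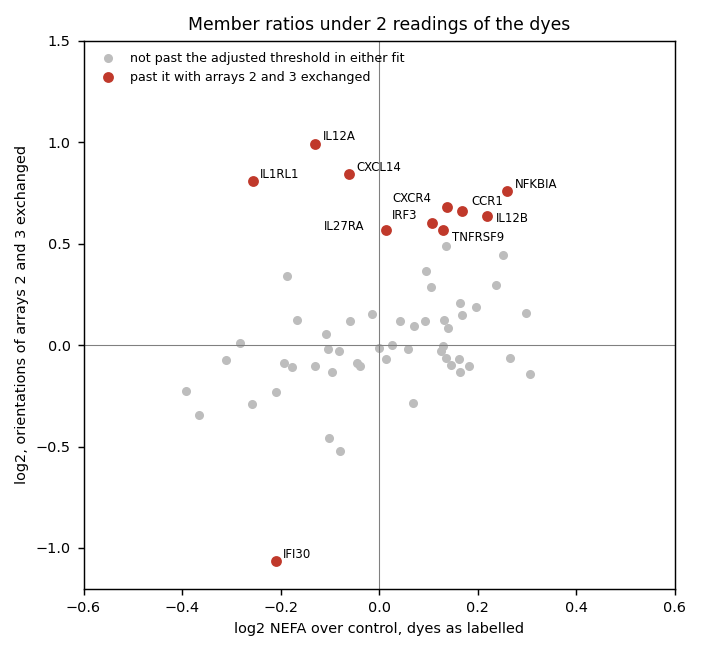
Log2 NEFA over control of the 60 tested members with the dyes as labelled (horizontal axis) and after exchanging the dye orientations of arrays 2 and 3 (vertical axis). The 11 named probes pass the adjusted threshold with the exchange, at 0.57 to 0.99 for 10 of them and at -1.07 for IFI30, and 0 pass with the labelled dyes, where all lie between -0.39 and 0.31.

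Partners of these pathways whose symbols fall outside the rule gave the same count of 0. Of 16 genes on the array from a list of interferon-induced genes, 6 were measured, for 6 probes, with 0 called higher and 0 called lower in limma and 0 at an unadjusted p under 0.05. They were the antiviral RSAD2 (-0.09), SP110 (0.17), PSMB8 of the immunoproteasome (0.08), the RNA sensor DHX58 (0.06), the RNA-activated kinase EIF2AK2 (-0.01) and CXADR (0.07). CXADR, a virus receptor at cell junctions, was on the list but is not known as an interferon-induced gene. Of NF-kappaB and Toll signalling partners, 12 probes for 10 of 30 genes were measured, with 0 called in either direction, 0 at an unadjusted p under 0.05 and a median of 0.04. TRAF6, the ubiquitin ligase downstream of IL1 and Toll-like receptors, was at -0.44 ± 0.21. RELA, the main transactivating subunit, was at 0.22 ± 0.14 and NLRP3 at -0.22 ± 0.24. This TRAF6 probe was above background in 2 NEFA and 4 control pools, and RELA in 3 NEFA and 1 control pool. Each met the filter only by the condition in which it was brighter, which favours the sign of its value. A further TRAF6 probe was above background in 0 pools. The adaptor MYD88 was above background in 4 of 8 pools and was not measured. Of JAK-STAT partners, 15 probes for 11 of 27 genes were measured, again with 0 called in either direction and 0 at an unadjusted p under 0.05, and a median of -0.01. PIAS1, an inhibitor of STAT factors, was at -0.31 ± 0.15 and MYC, a STAT target, at -0.25 ± 0.20, while the gp130 family members OSM, OSMR and CLCF1 were above background in 0 pools.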

How the data were processed

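Blastocyst RNA was amplified and labelled directly with Cy3 or Cy5, per the labels' protocols. The deposited scanner files hold spot and local background intensity in each dye, not normalised, per the file headers. The authors' deposited table holds log2 ratios of Cy5 over Cy3, as its columns followed log2 ratios recomputed from the scanner values (r = 0.990 to 0.995). Its column medians were -0.020, -0.023, -0.022 and -0.023, and its centring is unknown. The submitters' processing notes name limma.

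Intensities were corrected with normexp (offset 50) and then by loess, array by array, giving control spots no weight, and ratios of spots flagged by the scanner were left out. The limits, 237 to 369 in Cy3 and 201 to 306 in Cy5, apply to corrected intensities. All 17145 measured probes were fitted in limma 3.58.1 (R 4.3.3) with a dye term and the labelled orientations, with 2 residual degrees of freedom, and Benjamini-Hochberg adjustment covered all of them. In data simulated with independent noise on each array, this fit recovered 12% of 2-fold and 94% of 4-fold changes over 17073 probes. Of its 114 calls, 8 were false. The real arrays 2 and 4 were correlated (r = -0.54), which the simulation did not include, so recovery in these data may differ. Gene symbols are those of the platform annotation, some possibly outdated, and 30648 probes are unnamed here. The members and lists were chosen with earlier results of these data known. All measured members are named, and array values are given for those with 1 direction on 4 arrays and for a list of central genes. Further array values (IFI30, STAT2, IL11, IL11RA and IL17RE) were chosen after they were seen. Alternatives varied the background correction, normalisation, filter, dye term, arrays, orientations and the detection limit. The number of arrays limits the precision.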

Additional observations from a re-analysis of the deposited data

Results flagged for a closer look

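In 3 of 59 members with a ratio on 4 arrays, 1 array stood far from the other 3, where chance gives about 1 in 20. NFKB1 was at -0.55 on array 4 and between -0.26 and -0.21 on the others. TLR3 was at -0.69 on array 1 and between 0.26 and 0.42 on the others. IL17REL was at 1.06 on array 1 and between -0.08 and 0.01 on the others.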

How the results depend on the processing

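With the labelled orientations, 0 members passed the adjusted threshold in limma under each alternative run. At an unadjusted p under 0.05 there was 1 member with plain background subtraction, 3 without the filter on dim probes (of 181), 1 in the authors' deposited table and 1 to 2 when 1 array was left out. Of all probes, 2 passed the adjusted threshold in the authors' deposited table. With the orientations of arrays 2 and 3 exchanged, 1193 probes and 11 members passed, 16 members had an unadjusted p under 0.05, and IL12A (0.99), CXCL14 (0.84) and IL1RL1 (0.81) turned from negative to positive. The cause was not tested. Values changed sign for 23 of 60 members without array 4 and 18 of 59 without array 1. IL8 stayed between -0.55 and -0.24 and IL23A between 0.21 and 0.39 when 1 array was left out. The count of 60 measured members was 42 at mean plus 3 SD, 75 at the 95th percentile of the negative controls, 53 without background correction and 30 when all 8 pools were required. The ratios are already paired within each array. Beyond that pairing, no paired analysis was possible because the 2 dye orientations share no replicate number.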
